A study of Mus musculus with 9 samples.

Results

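Mature fat cells carry a characteristic set of transcripts, several of which other cells make too. Of these genes, 10 (Adipoq, Plin1, Cfd, Retn, Lep, Fabp4, Cidec, Car3, Lpl and Pparg) were followed here through the intestinal tract of mice. The genes were taken by symbol from a table of 55468 genes, in which each of the 10 symbols stood on 1 row. The values are FPKM, fragment numbers corrected for transcript length and sequencing depth, and there was 1 library for each of 9 conditions.

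The mice drank dextran sulfate sodium (DSS), which damages the intestinal lining and serves as a model of inflammatory bowel disease. The question was what diets without methionine, or without tryptophan and niacin, do to the gut under DSS. The libraries 1K (methionine-deficient diet), 2K (tryptophan- and niacin-deficient diet), 3K (deficient in all 3 nutrients) and R (normal diet) were collected at day 28. The libraries 1KR, 2KR and 3KR came from mice that were fed the matching deficient diet up to day 28 and normal diet afterwards, and RR from mice kept on normal diet throughout, all collected at day 33. All 8 of these conditions had DSS from day 18. The control C had normal diet without DSS and was collected at day 34, so DSS and collection day differ together between C and the others. The sources used here do not give the strain, sex and age of the mice, the stretch of intestine taken, how much attached mesentery was trimmed, or whether 1 mouse or several went into a library. There is no replicate spread to judge a difference by, so each one below describes a pair of libraries.

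White adipocytes store triglyceride in a single lipid droplet and release hormones. Fat reaches the gut wall along the mesentery, the fold of tissue that carries its vessels. The nuclear receptor PPARγ, encoded by Pparg, drives adipocyte differentiation together with C/EBP factors and binds DNA as a partner of the retinoid X receptor. Plin1 (perilipin 1) and Cidec coat the lipid droplet, Lpl (lipoprotein lipase) and Fabp4 (a fatty acid binding protein) bring fatty acids in, and Adipoq (adiponectin), Lep (leptin), Retn (resistin) and Cfd (adipsin, complement factor D) are secreted. Car3 is a cytosolic carbonic anhydrase that is abundant in adipocytes. Several of these genes are known from other cells too: Fabp4 from capillary endothelium and macrophages, Lpl and Car3 from muscle, Pparg from colonic epithelium, and Cidec from liver and small intestine.

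The regulatory stretches beside the start sites of 4 genes that moved together across the libraries (Adipoq, Plin1, Retn and Cfd) and of Cidec, which departed from them, are shown because the groups described below turn on these genes. Each window, from RefSeq on GRCm38.p6, runs 5′ to 3′ along the gene's strand from 250 bases before the start to 50 bases after it. Capitals mark matches to a C/EBP core, TTGCNNAA or its reverse complement TTNNGCAA.
Adipoq, chr16:23146286-23146585, plus strand: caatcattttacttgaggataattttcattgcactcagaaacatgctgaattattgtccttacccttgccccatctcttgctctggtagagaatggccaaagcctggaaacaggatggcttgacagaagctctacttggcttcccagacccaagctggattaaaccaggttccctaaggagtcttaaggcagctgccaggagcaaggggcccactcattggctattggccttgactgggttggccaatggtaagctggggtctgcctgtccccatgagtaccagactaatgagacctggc
Plin1, chr7:79732727-79733026, minus strand: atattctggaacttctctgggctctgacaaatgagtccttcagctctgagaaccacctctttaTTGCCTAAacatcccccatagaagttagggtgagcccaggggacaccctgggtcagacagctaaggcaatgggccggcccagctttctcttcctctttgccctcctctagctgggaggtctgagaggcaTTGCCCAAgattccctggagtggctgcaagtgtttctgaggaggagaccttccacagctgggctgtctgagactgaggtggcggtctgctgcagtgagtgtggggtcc
Retn, chr8:3655520-3655819, plus strand: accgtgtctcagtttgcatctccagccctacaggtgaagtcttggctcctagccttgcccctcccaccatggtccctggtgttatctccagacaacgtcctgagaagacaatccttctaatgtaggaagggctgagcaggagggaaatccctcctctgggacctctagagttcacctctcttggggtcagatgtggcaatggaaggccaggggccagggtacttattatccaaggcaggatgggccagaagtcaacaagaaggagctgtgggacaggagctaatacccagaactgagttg
Cfd, chr10:79890603-79890902, plus strand: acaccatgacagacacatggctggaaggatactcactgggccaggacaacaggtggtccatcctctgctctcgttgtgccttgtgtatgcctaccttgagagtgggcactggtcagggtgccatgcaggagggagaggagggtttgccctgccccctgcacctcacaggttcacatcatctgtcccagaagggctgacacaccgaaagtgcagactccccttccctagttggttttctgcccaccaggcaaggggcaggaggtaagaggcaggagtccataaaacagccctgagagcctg
Cidec first start, chr6:113435711-113436010, minus strand: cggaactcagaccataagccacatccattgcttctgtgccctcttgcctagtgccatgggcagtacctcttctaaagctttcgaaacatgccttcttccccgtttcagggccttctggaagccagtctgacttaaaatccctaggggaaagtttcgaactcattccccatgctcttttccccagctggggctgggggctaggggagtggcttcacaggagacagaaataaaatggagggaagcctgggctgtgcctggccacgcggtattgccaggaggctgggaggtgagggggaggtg
Cidec second start, chr6:113434715-113435014, minus strand: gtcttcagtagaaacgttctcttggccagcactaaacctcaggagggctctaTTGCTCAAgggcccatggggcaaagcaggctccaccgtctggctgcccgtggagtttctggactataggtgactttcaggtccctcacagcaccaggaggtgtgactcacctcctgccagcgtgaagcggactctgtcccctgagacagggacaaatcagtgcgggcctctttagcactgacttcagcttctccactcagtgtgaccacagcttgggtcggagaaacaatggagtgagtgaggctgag
The table of windows held 7 of the 10 members, with 10 start sites among them (2 for Cidec and 3 for Pparg). The C/EBP core occurred in 4 of these 10 windows and in 10.8% of all 32851 windows. Plin1 had it at -187 to -180 and at -58 to -51 relative to the start, Lep at -55 to -48, the second Cidec start at -198 to -191, and the third Pparg start at -215 to -208 and -16 to -9. The windows of Adipoq, Retn, Cfd and the first Cidec start held 0 matches to it. The hexamer read by nuclear receptors, AGGTCA or TGACCT, was in 2 of the 10 windows, both of Pparg, and in 16.3% of all windows. The direct repeat AGGTCANAGGTCA read by PPAR and its partner was in 0 of the 10 and in 0.0396% of all windows, and a TATA box (TATAAA or TTTATA) in 1 of the 10, a Pparg window, and in 13.6% of all. No 2 of these matches overlapped within a member window. The deposited values are per gene, so the start sites of Cidec or Pparg cannot be told apart in them.

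By estimate the libraries held 14.5 M to 31.4 M fragments, with 3KR the shallowest, and between 15908 and 17256 genes at 1 FPKM or more. Other organs and gut regions were unevenly present. Liver, pancreatic acinar and stomach lists held 5.44%, 5.38% and 2.19% of the summed FPKM in 2K, and the acinar list held 7.46% in 3K. Car1, a carbonic anhydrase of colonic epithelium, was at 1151 FPKM in 3KR and at most 2.56 FPKM elsewhere.

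Adiponectin, a hormone made almost only by adipocytes, was present in all 9 libraries. In tissue libraries such as these, fewer adipocytes and less RNA per adipocyte cannot be told apart. Adipoq (ENSMUSG00000022878, chromosome 16, 23146536 to 23158028, plus strand) had 0.85 FPKM in 1K, 10.95 in 2K, 20.9 in 3K, 20.7 in R, 18.1 in 1KR, 20.3 in 2KR, 3.34 in 3KR, 17.1 in RR and 35.4 in C. The control was highest, 6 of the DSS libraries lay between 10.95 and 20.9, and 1K and 3KR lay apart below them. Plin1 (ENSMUSG00000030546, chromosome 7, 79720218 to 79732903, minus strand), the droplet coat that gates lipolysis, had 0.497 FPKM in 1K, 7.53 in 2K, 6.32 in 3K, 11.6 in R, 10.9 in 1KR, 9.53 in 2KR, 0.996 in 3KR, 11.3 in RR and 20.8 in C. Its order at both ends was that of Adipoq. The highest library exceeded the lowest 41.6-fold for Adipoq and 41.8-fold for Plin1.

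Resistin and Car3 kept the same ends. Retn (ENSMUSG00000012705, chromosome 8, 3655770 to 3660110, plus strand) had 0.702 FPKM in 1K, 7.38 in 2K, 10.6 in 3K, 8.34 in R, 14.0 in 1KR, 14.6 in 2KR, 3.48 in 3KR, 11.2 in RR and 22.1 in C. Car3 (ENSMUSG00000027559, chromosome 3, 14863512 to 14872523, plus strand) had 2.94 FPKM in 1K, 54.1 in 2K, 58.0 in 3K, 144 in R, 109 in 1KR, 141 in 2KR, 25.6 in 3KR, 122 in RR and 254 in C. Car3 had the widest range of the 9 members above 0 everywhere, 86.1-fold, and 2K and 3K sat below R for it. Of 8 genes of skeletal muscle, which also makes Car3, between 2 and 5 reached 1 FPKM in a library, and their sum ran from 7.07 FPKM in 3K to 27.2 in 3KR. Mylpf, a myosin light chain (1.21 to 13.9 FPKM), and Ckm, muscle creatine kinase (1.73 to 9.69 FPKM), were above 1 FPKM in all 9 libraries, while the myosin Myh4 was listed at 0 in 6. The part of muscle in Car3 was not tested.

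Adipsin and leptin followed in part. Cfd (ENSMUSG00000061780, chromosome 10, 79890853 to 79892655, plus strand) had 9.97 FPKM in 1K, 63.7 in 2K, 157 in 3K, 108 in R, 66.2 in 1KR, 103 in 2KR, 23.5 in 3KR, 117 in RR and 130 in C. Here 3K stood above C, while 1K and 3KR were again the lowest. Lep (ENSMUSG00000059201, chromosome 6, 29060220 to 29073877, plus strand) was listed at 0 in 1K and had 0.14 FPKM in 2K, 0.056 in 3K, 0.606 in R, 0.834 in 1KR, 0.295 in 2KR, 0.042 in 3KR, 1.18 in RR and 1.26 in C. Leptin was thus the scarcest member, and only RR and C reached 1 FPKM. At the estimated depth and its longest coding transcript of 3259 bases, 0.042 FPKM in 3KR is about 1.98 fragments and 0.056 in 3K about 4.88, against 109 in C, so its order among the low libraries was not detectable at this depth. The low Adipoq, Plin1 and Retn values of 1K correspond in the same way to about 24.6, 31.4 and 17.9 fragments.

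**Figure D1:**
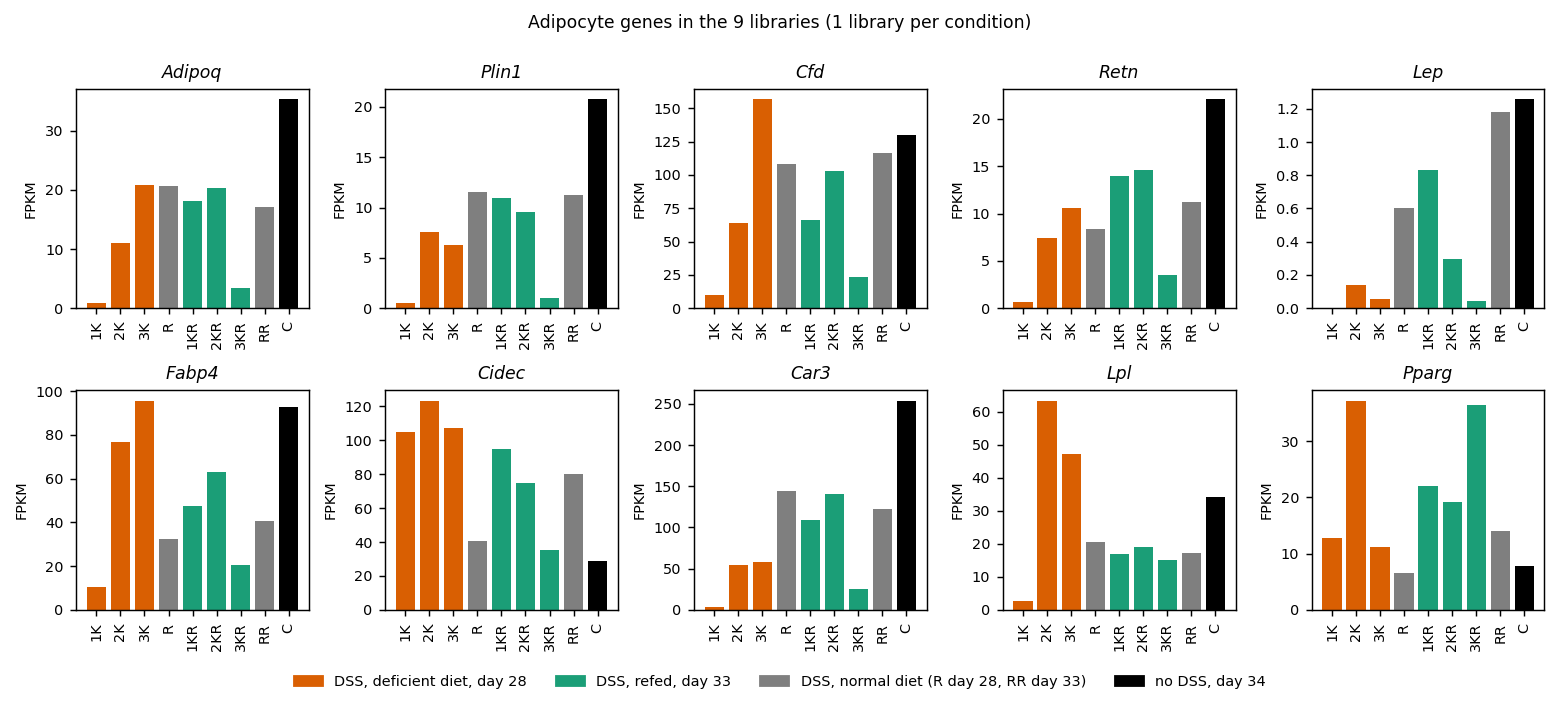
FPKM (y axis, from 0) of each of the 10 members in the 9 libraries (x axis), 1 bar per library, orange for deficient diets at day 28, green for refed mice at day 33, grey for normal diet with DSS and black for the control without DSS. Adipoq, Plin1, Retn, Lep and Car3 were highest in C, Adipoq, Plin1, Cfd, Retn, Fabp4, Car3 and Lpl were lowest in 1K, and Cidec was lowest in C at 28.7 FPKM.

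The fatty acid uptake genes shared the low end and differed at the top. Fabp4 (ENSMUSG00000062515, chromosome 3, 10204088 to 10208576, minus strand) had 10.3 FPKM in 1K, 77.0 in 2K, 95.7 in 3K, 32.6 in R, 47.5 in 1KR, 63.1 in 2KR, 20.5 in 3KR, 40.5 in RR and 93.0 in C. Lpl (ENSMUSG00000015568, chromosome 8, 68880491 to 68907448, plus strand) had 2.63 FPKM in 1K, 63.3 in 2K, 47.2 in 3K, 20.7 in R, 16.9 in 1KR, 19.1 in 2KR, 15.1 in 3KR, 17.3 in RR and 34.1 in C. For both genes 2K and 3K stood well above R and 1K was lowest, with 3KR next. For Lpl, 3KR lay close below 1KR, RR and 2KR, whereas for Adipoq it lay far below them.

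Cidec and Pparg did not follow the adipocyte hormones. Cidec (ENSMUSG00000030278, chromosome 6, 113424634 to 113435760, minus strand) had 105 FPKM in 1K, 123 in 2K, 107 in 3K, 40.5 in R, 94.7 in 1KR, 74.7 in 2KR, 35.1 in 3KR, 80.4 in RR and 28.7 in C. The library with the least Adipoq, 1K, was thus among the highest for Cidec, and the library with the most Adipoq was the lowest. Pparg (ENSMUSG00000000440, chromosome 6, 115360951 to 115490399, plus strand) had 12.8 FPKM in 1K, 37.2 in 2K, 11.3 in 3K, 6.53 in R, 22.1 in 1KR, 19.3 in 2KR, 36.5 in 3KR, 14.0 in RR and 7.85 in C. Its highest values were in 2K and 3KR and its lowest in R and C. Set against the name of adipocyte genes, Cidec and Pparg therefore did not vary as Adipoq did in this tissue.

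The likeness between members over the 9 libraries is given as a description, with no test, and its points share the library depth and scaling. On log2(FPKM + 0.5), Pearson's r between Adipoq and another member was 0.97 for Retn, 0.97 for Cfd, 0.96 for Plin1, 0.96 for Car3, 0.86 for Fabp4, 0.74 for Lpl and 0.68 for Lep, against -0.21 for Cidec and -0.35 for Pparg. Fabp4 and Lpl were closest to each other (0.90). Much of the likeness rested on 1K and 3KR. Without these 2 libraries, a choice made after the values were seen, r with Adipoq over the other 7 was 0.81 for Retn, 0.78 for Car3, 0.71 for Plin1, 0.67 for Cfd and 0.48 for Lep, but 0.21 for Fabp4, -0.22 for Lpl, -0.81 for Cidec and -0.78 for Pparg. On ranks, Spearman's rho over these 7 was 0.75 for Cfd, 0.61 for Car3, 0.46 for Retn, 0.32 for Plin1 and 0.14 for Lep. It was 0.39 for Fabp4, 0.18 for Lpl, -0.61 for Cidec and -0.79 for Pparg.

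**Figure D2:**
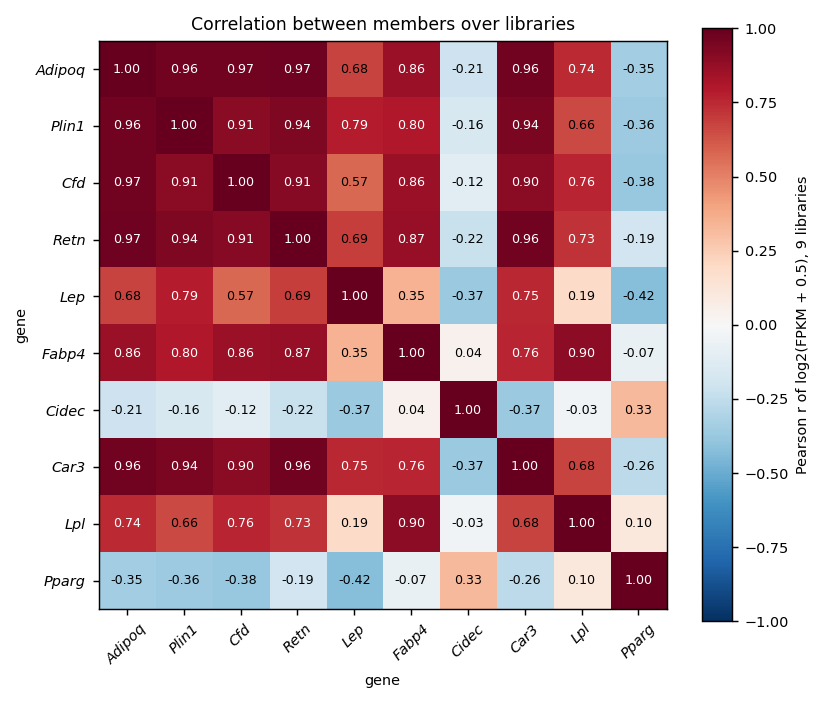
Pearson correlation between members (both axes) of log2(FPKM + 0.5) over the 9 libraries, red for positive and blue for negative. Adipoq, Plin1, Cfd, Retn and Car3 form a block with r between 0.90 and 0.97, and Pparg is at -0.35 with Adipoq.

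Each member was also divided by Adipoq within each library. The log2 ratio of Retn to Adipoq had a median of -0.57 with an SD of 0.40 over 9 libraries. The SD was 0.46 for Plin1, 0.52 for Car3 and 0.53 for Cfd, although Adipoq itself spanned 41.6-fold. It was 0.93 for Fabp4, 1.08 for Lpl, 1.47 for Lep over the 8 libraries where Lep was above 0, 2.00 for Cidec and 2.14 for Pparg. The Lpl ratio lay between -0.10 and 0.02 in R, 1KR, 2KR, RR and C and between 1.17 and 2.53 in 1K, 2K, 3K and 3KR. The Cidec ratio was 6.94 in 1K and -0.30 in C.

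**Figure D3:**
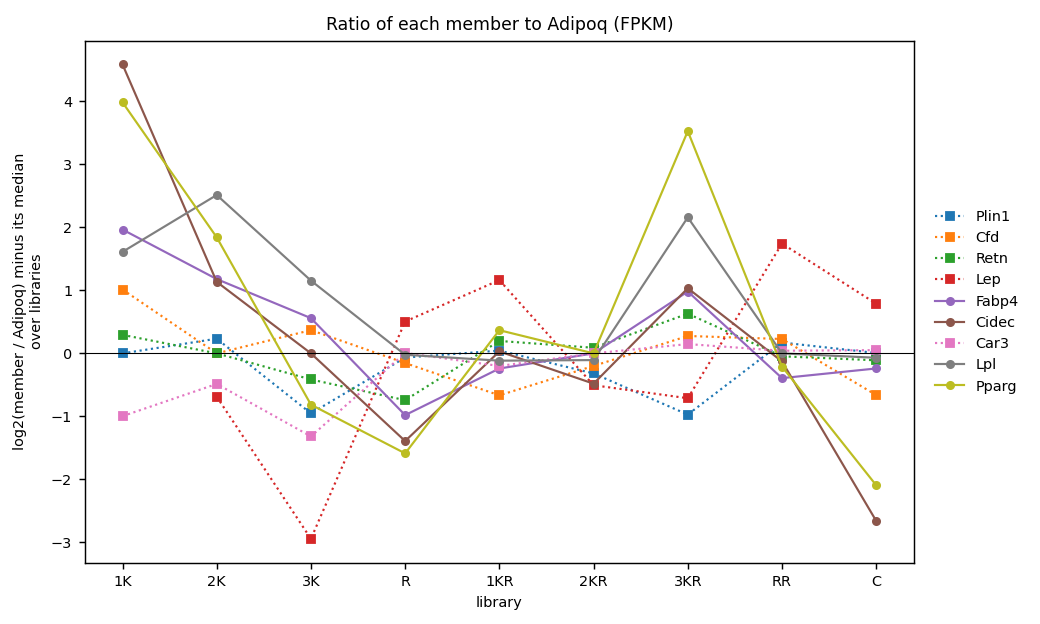
Log2 ratio of each other member to Adipoq (FPKM), less that member's median over libraries (y axis), by library (x axis), with lines only to guide the eye. Retn, Plin1, Car3 and Cfd, with SDs of 0.40 to 0.53, stay closer to 0 than Cidec and Pparg, with SDs of 2.00 and 2.14, which are highest in 1K and lowest in C.

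By Pearson's r over the 9 libraries, the 8 genes most like Adipoq were the members Retn, Cfd, Plin1 and Car3 and, outside the list, Slc36a2 (0.97), an amino acid transporter, Gpx8 (0.96), Fuz (0.94) and Cd72 (0.92). Slc36a2 had 0.283 FPKM in 1K, 0.681 in 3KR and 3.39 in C, its 2 lowest values and its highest. Those most like Lpl were Aox1 (0.97), Msi1 (0.95), Cyp2e1 (0.95), Polr3d (0.94), Cd99l2 (0.94), Rangap1 (0.94), Car5b (0.94) and Rap2b (0.93). Cyp2e1, a cytochrome P450 on the liver list, was at 178 FPKM in 2K, 87.9 in 3K, 41.0 in R, 24.0 in RR and 5.15 in 1K. It differed in this from Alb on the same list, which was at 81.7 FPKM in 3K, 85.3 in R and 3.36 in RR. The source of Cyp2e1 was not tested. Those most like Pparg were Ccm2 (0.97), Tmem256 (0.96), Rps27 (0.94), Car2 (0.93), Rps14 (0.92), Msrb1 (0.92), Mrpl2 (0.92) and Eif4a1 (0.91). Rps27 and Rps14 are ribosomal proteins, and Car2, a carbonic anhydrase of gut epithelium, was at 130 FPKM in 2K, 84.1 in 3KR, 2.45 in R and 2.34 in C. The members were also set against Fabp1, Gip, Fabp6, Car1, Alb, Ctrb1 and Tff1, genes of gut regions and other organs. With Fabp1, which carries fatty acids in proximal enterocytes and was compared after its values were seen, Cidec had r = 0.86 and Adipoq r = -0.29. That was the highest r of Cidec with any of these genes, and it had -0.74 with Fabp6. With Alb, Lpl had r = 0.81 and Fabp4 r = 0.62.

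**Figure D4:**
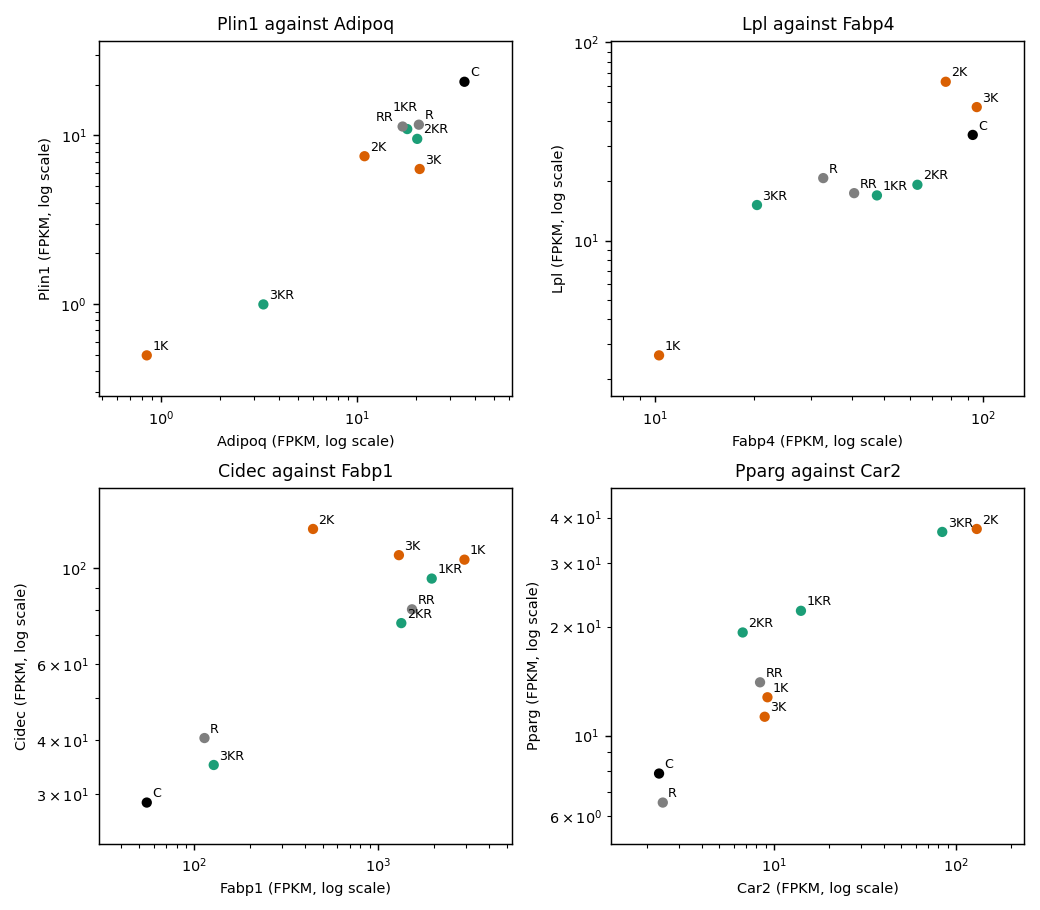
Levels of 4 pairs of genes in the 9 libraries (FPKM, both axes on a log scale), 1 labelled point per library, orange for deficient diets at day 28, green for refed, grey for normal diet with DSS and black for the control. Plin1 is broadly higher where Adipoq is, Lpl where Fabp4 is apart from 5 libraries with Lpl between 15.1 and 20.7 FPKM, Cidec where Fabp1 is except in 2K, and Pparg is high with Car2 in 2K and 3KR.

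The DSS libraries on normal diet were compared with the control, at day 28 and at day 33. A gene was counted where it reached 1 FPKM in either library and its log2(FPKM + 0.5) differed by at least 1, that is 2-fold. In R, 0 of the 10 members were at least 2-fold higher than in C (background 4.43% of 18222 genes) and 2 were lower (background 3.22%). These were Fabp4, with 32.6 FPKM in R and 93.0 in C (log2 difference -1.50), and Retn (-1.35). A further 7 were below C by less than 2-fold, among them Adipoq (-0.76), Plin1 (-0.82) and Car3 (-0.82), and Cidec was above it (0.49). The median of the 10 was -0.73, and that of all genes kept 0.01. In RR, 1 member was at least 2-fold higher than in C (background 6.71%) and 3 lower (background 5.81%). Cidec was the higher one, with 80.4 FPKM in RR and 28.7 in C (1.47), and the lower ones were Fabp4 (-1.19), Car3 (-1.05) and Adipoq (-1.03). After median-of-ratios scaling 5 members were at least 2-fold lower, with Retn and Lpl added. Both comparisons share C. Of 10 macrophage genes, 4 exceeded C by 2-fold or more in R and 3 in RR, with 0 lower in either, and the liver list had 10 of 12 lower in RR. In addition, the duodenal list was higher in RR, with 4 of 6 genes at least 2-fold above C and 1 below, and the ileal list lower, with 4 of 6 below. The mesothelial list, markers of the serosal surface, had 0 of 7 genes 2-fold higher and 0 lower in RR. The part of gut region and of these cells was not tested.

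Between RR and R, which differ by collection day, 1 of the 10 members was at least 2-fold higher in RR (background 5.42%) and 0 lower (background 5.29%). That was Pparg, with 14.0 FPKM in RR and 6.53 in R (1.05), which came to 0.95 after median-of-ratios scaling. Adipoq (-0.27), Plin1 (-0.03), Lpl (-0.25) and Car3 (-0.24) were close to R, and Cidec was at 80.4 FPKM in RR and 40.5 in R (0.98). Beside these, the duodenal list had 4 of 6 genes 2-fold or more above R and 1 below, the ileal list 4 of 6 below and the liver list 7 of 12 below, and their part was not tested.

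The library of the methionine-deficient diet at day 28 had the lowest Adipoq, Plin1, Cfd, Retn, Fabp4, Car3 and Lpl of the 9 libraries. In 1K against R, 7 of 9 members kept were at least 2-fold lower (background 8.63%) and 1 higher (background 7.17%), with a median of -2.88, against 0.03 for all genes. Car3 differed most (2.94 FPKM in 1K and 144 in R, -5.39), then Adipoq (-3.97), Plin1 (-3.60), Cfd (-3.38), Retn (-2.88), Lpl (-2.76) and Fabp4 (-1.62). Cidec was the member that was higher, with 105 FPKM in 1K and 40.5 in R (1.36), and Pparg was at 12.8 FPKM in 1K and 6.53 in R (0.91). Lep was listed at 0 in 1K. Other lists moved with the adipocyte genes. Of 7 mesothelial genes kept, 5 were at least 2-fold lower and 0 higher, with Msln at 1.43 FPKM in 1K and 4.32 in R and Upk3b at 1.26 in 1K and 5.04 in R, and the liver list 11 of 12 lower. The macrophage list had 4 of 10 lower and 1 higher, the capillary endothelium list 1 of 8 lower (Pecam1 at 6.15 FPKM in 1K and 13.2 in R), the smooth muscle list 2 of 8 lower, and the duodenal list 4 of 6 higher and 2 lower. Their part in the adipocyte values was not tested.

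The members differed in direction under the diet lacking tryptophan and niacin. In 2K against R, 4 of 9 were at least 2-fold higher (background 14.7%) and 1 lower (background 14.1%). The higher ones were Pparg (37.2 FPKM in 2K and 6.53 in R, 2.42), Cidec (1.60), Lpl (1.59) and Fabp4 (1.23), and the lower one was Car3 (-1.40). Adipoq (-0.89), Cfd (-0.76), Plin1 (-0.59) and Retn (-0.17) were lower by less than 2-fold. In the same library the liver (12 of 12), acinar (12 of 12) and stomach (7 of 7 kept) genes exceeded R by 2-fold or more, with Alb, serum albumin, at 15459 FPKM in 2K and 85.3 in R. Lists of the gut itself differed too, with 5 of 6 duodenal genes at least 2-fold higher in 2K and 0 lower. The ileal list had 5 of 6 lower and 0 higher, and the smooth muscle list 7 of 8 lower and 0 higher. The part of these organs, of gut region and of smooth muscle was not tested.

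In 3K against R, 3 of 9 members were at least 2-fold higher (background 11.6%) and 1 lower (background 13.4%). They were Fabp4 (1.54), Cidec (1.39) and Lpl (1.17), and again Car3 was lower (-1.30). Adipoq was level between the libraries, with 20.9 FPKM in 3K and 20.7 in R (0.01), although 3K lacked methionine as 1K did. All 12 acinar genes were higher in 3K, and the liver list had 1 of 12 higher, Cyp2e1. Among 8 genes of capillary endothelium, a cell type that also makes Fabp4, 4 exceeded R by 2-fold or more and 0 were lower, with Pecam1 at 33.0 FPKM in 3K and 13.2 in R and Gpihbp1, which anchors lipoprotein lipase on capillaries, at 15.1 in 3K and 2.44 in R. In 2K Gpihbp1 was at 13.8 FPKM and 1 of 8 endothelial genes was 2-fold higher. What these cells add to Fabp4 and Lpl was not tested. The 3 diet comparisons share R.

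After refeeding, 1KR and 2KR lay close to RR. In 1KR against RR, 0 of the 10 members were at least 2-fold higher (background 2.47%) and 0 lower (background 3.51%), with Adipoq at 18.1 FPKM in 1KR and 17.1 in RR (0.08), Plin1 at 10.9 in 1KR and 11.3 in RR (-0.05) and Cfd at 66.2 in 1KR and 117 in RR (-0.81), the largest difference. The mesothelial list nonetheless had 5 of 7 genes at least 2-fold lower in 1KR. In 2KR against RR, 0 were higher (background 2.67%) and 1 lower (background 3.67%), Lep, with 0.295 FPKM in 2KR and 1.18 in RR (-1.08), a value that came to -0.75 with a pseudocount of 1. The others lay between -0.23 (Plin1) and 0.63 (Fabp4).

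After the diet lacking all 3 nutrients, the refed library had low adipocyte genes. In 3KR against RR, 7 of the 10 members were at least 2-fold lower (background 9.73%) and 1 higher (background 11.4%), with a median of -1.59, against 0.03 for all genes. The lower ones were Plin1 (0.996 FPKM in 3KR and 11.3 in RR, -2.98), Cfd (-2.29), Car3 (-2.23), Adipoq (-2.20), Lep (-1.63), Retn (-1.55) and Cidec (-1.19). Fabp4 was at -0.97 and Lpl at -0.19. Pparg was the higher one, with 36.5 FPKM in 3KR and 14.0 in RR (1.35). In that library 3 of 6 colonocyte genes kept exceeded RR by 2-fold or more and 0 were lower, with Car1 at 1151 FPKM and listed at 0 in RR, and the duodenal list had 4 of 6 lower and 1 higher. The smooth muscle list had 3 of 8 higher, the lymph node list 7 of 8 higher and the mesothelial list 1 of 7 lower. The 3KR library was also the shallowest. The part of gut region and depth was not tested. The 3 refeeding comparisons share RR.

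**Figure D5:**
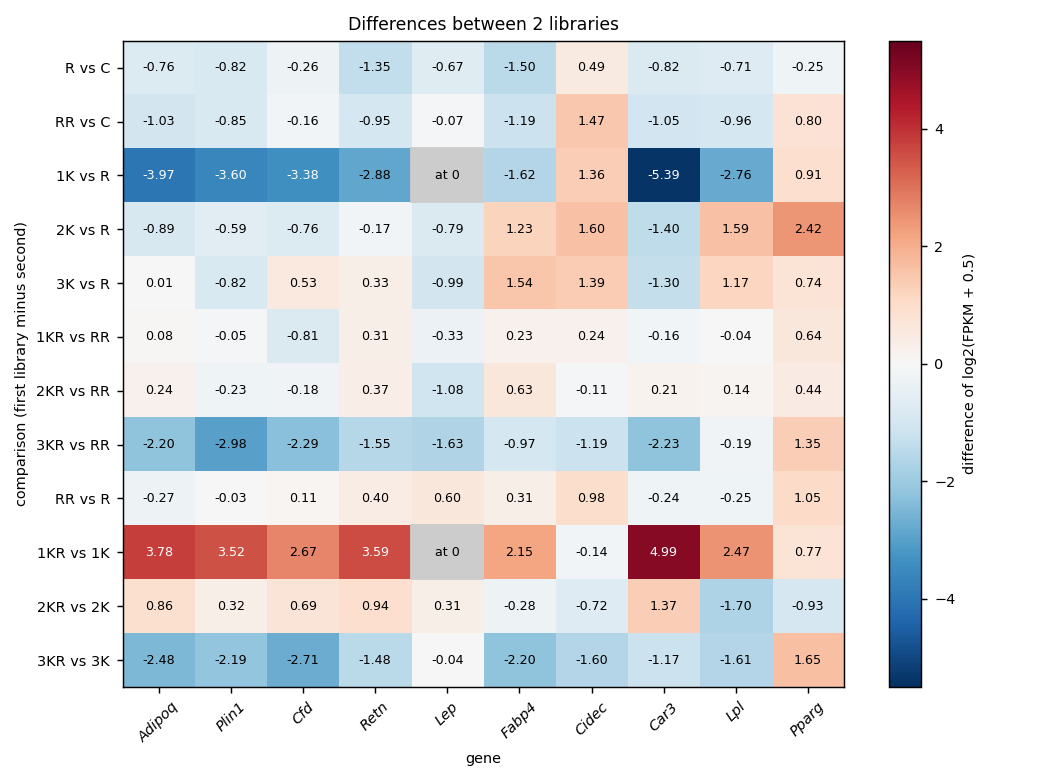
Difference of log2(FPKM + 0.5) between 2 libraries for each member (x axis) and comparison (y axis), first library minus second, red where the first is higher, grey where a library is listed at 0. The row of 1K against R runs from -5.39 (Car3) to 1.36 (Cidec), and the row of 1KR against RR stays within 0.81 of 0.

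The refed libraries were also set against the deficient ones of the same diet, 5 days apart. In 1KR against 1K, 7 of 9 members were at least 2-fold higher (background 6.57%) and 0 lower (background 7.79%), led by Car3 (109 FPKM in 1KR and 2.94 in 1K, 4.99), Adipoq (3.78), Retn (3.59) and Plin1 (3.52), while Cidec was at 94.7 in 1KR and 105 in 1K (-0.14). Of 11 liver genes kept, 10 were also higher in 1KR by 2-fold or more. In 2KR against 2K, 1 member was higher (background 13.5%), Car3 (1.37), and 1 lower (background 19%), Lpl, with 19.1 FPKM in 2KR and 63.3 in 2K (-1.70). The liver (12 of 12), acinar (12 of 12) and stomach (7 of 7 kept) genes were all lower in 2KR by 2-fold or more. In 3KR against 3K, 1 was higher (background 13.3%), Pparg (1.65), and 8 of 9 were lower (background 11.7%), with Cfd at 23.5 FPKM in 3KR and 157 in 3K (-2.71), Adipoq at -2.48 and Fabp4 at -2.20. There the acinar genes (12 of 12) and 4 of 8 capillary endothelium genes were lower by 2-fold or more, and 4 of 6 colonocyte genes kept were higher. The part of these tissues in the 3 comparisons was not tested. For Adipoq, 1K was low and 1KR near RR, whereas 3K was near R and 3KR low. Lep was low in all 3 deficient libraries, listed at 0 in 1K and at 0.056 FPKM in 3K and 0.14 in 2K, against 0.606 in R. All of these values lie under the floor of 1 FPKM, and those of 3K and 2K are about 4.88 and 10.8 fragments.

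A linear model over the 8 DSS libraries tested the diet terms with limma. It treated methionine deficiency and tryptophan plus niacin deficiency as 2 factors within each day and took their interaction as 0, which leaves 2 residual degrees of freedom. Lep stayed out, with a mean under 1 FPKM. Of the 9 members fitted, 0 were called at an adjusted p under 0.05 for methionine deficiency at day 28 (background 0% of 17577 genes), and 0 had an unadjusted p under 0.05. Their coefficients were negative for 8 of 9 members, among them Car3 (-2.64 ± 1.43, SE) and Adipoq (-1.54 ± 1.32, SE), both with an adjusted p of 1 in limma. Each of these coefficients is the mean of 1K minus R and 3K minus 2K, and the 2 parts often differed in sign. Adipoq (20.9 FPKM in 3K and 10.95 in 2K), Cfd, Retn, Fabp4 and Car3 were higher in 3K than in 2K, so their negative sign came from 1K. Plin1, Lpl, Cidec and Pparg were lower in 3K than in 2K, and Pparg was higher in 1K than in R. For tryptophan and niacin deficiency at day 28, 0 of 9 were called (background 0.188%) and 2 had an unadjusted p under 0.05. These were Lpl (2.76 ± 0.60, SE; limma adjusted p = 0.156) and Fabp4 (2.19 ± 0.67, SE; limma adjusted p = 0.209), and all 9 coefficients were positive. Each is the mean of 2K minus R and 3K minus 1K, so the low values of 1K raise it: in 2K against R alone, Adipoq, Plin1, Cfd, Retn and Car3 were lower, and Car3 was lower in 3K against R too. At day 33, 0 of 9 were called for either diet history (background 0% each) and 0 had an unadjusted p under 0.05. The change of the tryptophan and niacin term from day 28 to day 33 was called for 0 of 9 (background 0.148%), with Lpl at -2.77 ± 0.85 (SE; limma adjusted p = 0.523). Where 3K minus 1K differs from 2K minus R, that gap enters the error of the fit. Adipoq was such a case, at 0.85 FPKM in 1K, 20.9 in 3K, 10.95 in 2K and 20.7 in R.

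The other white adipocyte genes, a list of 24 that were all measured, did not move as 1 group. In 1K against R, 5 of 24 were at least 2-fold higher (background 7.17%) and 9 lower (background 8.63%). Enzymes that enterocytes also use for fat absorption and gluconeogenesis were among the higher: Dgat2, the last step of triglyceride synthesis, had 620 FPKM in 1K and 78.0 in R, Gpd1 had 414 in 1K and 117 in R, Pck1 had 424 in 1K and 112 in R, and the fatty acid transporter Cd36 had 180.4 in 1K and 42.3 in R. The fatty acid synthesis genes were lower, with Scd1 at 10.9 FPKM in 1K and 146 in R and Fasn at 21.4 in 1K and 58.5 in R. Thrsp (0.721 in 1K and 14.011 in R) and Plin4 (2.202 in 1K and 7.144 in R) were also at least 2-fold lower. The same held for Acvr1c (1.109 in 1K and 3.407 in R) and Lgals12 (0.525 in 1K and 2.823 in R). Adrb3 (0.537 in 1K and 1.662 in R), Trarg1 (0.344 in 1K and 1.53 in R) and Pnpla3 were lower too. Thrsp, Lgals12, Adrb3, Trarg1 and Pnpla3 (0.037 in 1K and 1.099 in R) were under 1 FPKM in 1K. Within 2-fold were the lipases Pnpla2, at 89.8 FPKM in 1K and 82.9 in R, and Lipe, at 58.9 in 1K and 52.1 in R. So were the acyltransferase Agpat2, at 141 FPKM in 1K and 117 in R, and the glycerol channel Aqp7, at 33.4 in 1K and 16.8 in R. In 3KR against RR, 10 of 24 were at least 2-fold lower (background 9.73%) and 1 higher (background 11.4%), with Dgat2 at 62.0 FPKM in 3KR and 259 in RR. In 1KR against RR 0 were lower (background 3.51%) and 0 higher (background 2.47%). In R against C, 6 of 24 were lower (background 3.22%) and 0 higher (background 4.43%), with Fasn at 58.5 FPKM in R and 133 in C and Scd1 at 146 in R and 389 in C. Of the brown adipocyte list of 10, the most abundant were genes that other tissues use as well: Cox7a1, a subunit of cytochrome oxidase, reached 126 FPKM in 1KR, Ppargc1a 48.9 in 1K, Cox8b 7.39 in 2K and Prdm16 7.96 in 2K. In 2K against R, 5 of 7 genes kept were higher by 2-fold or more (background 14.7%) and 0 lower (background 14.1%). In RR against C, 3 of 4 were higher (background 6.71%) and 0 lower (background 5.81%). Of its defining markers, looked at apart from the naming rule, Zic1 was listed at 0 in 7 of 9 libraries, and Ucp1, the uncoupling protein that defines brown fat, was at 3.81 FPKM in 2K, 0.74 in 3K and at most 0.096 elsewhere.

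Relatives and partners of the members had patterns of their own. In the resistin family, Retnlb was at 115 FPKM in 3KR and listed at 0 in RR and Retnlg was at 259.8 in 3KR and 6.15 in RR, whereas Retn was at 3.48 in 3KR and 11.2 in RR. In the family of Cidec, Cideb, which acts on lipoproteins in liver and gut, ran from 81.2 FPKM in 3KR to 223 in 1K, and Plin2, the droplet coat of most tissues, from 37.2 in C to 94.9 in 3K. Among the fatty acid binding proteins, Fabp5 was at 19.3 FPKM in 2K and between 2.14 and 8.09 elsewhere. Apoc2, the cofactor of lipoprotein lipase, was at 2944 FPKM in 1K and 134 in C, while Lpl itself was at 2.63 in 1K and 34.1 in C. C3, which factor D helps to activate, was at 1892 FPKM in 2K, a library rich in liver transcripts, and between 28.3 and 224 elsewhere. The adiponectin receptor Adipor1 varied little, from 36.4 FPKM in C to 50.5 in 2K, Adipor2 lay between 45.1 (3KR) and 178 (RR), and the leptin receptor Lepr was at 34.3 in 2K and between 3.04 and 11.8 elsewhere. Of the factors that act with PPARγ, the retinoid X receptor gene Rxra was at 102 FPKM in 2K and between 44.0 and 57.5 elsewhere. The C/EBP gene Cebpa was lowest in 3KR and highest in 2K.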

How the data were processed

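RNA from the intestinal tract was sequenced in 1 library for each of 9 conditions. Per the labels' protocols, ribosomal RNA was depleted and stranded libraries were prepared with no bead selection of mRNA. The authors deposited FPKM per gene, per the file headers, and the submitters' processing notes name HISAT2, Cuffdiff 2.2.1 and GRCm38. The sources used here do not name the authors' annotation. Coordinates and gene types come from GENCODE M21, in which 327 of 55468 IDs were not found.

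Values were used as deposited, on log2(FPKM + 0.5). Pairs of libraries were compared over genes with at least 1 FPKM in either, counted at 2-fold, with no test. The fit used limma 3.58.1 in R 4.3.3 with a mean-variance trend on 17577 genes whose mean over the 8 DSS libraries reached 1 FPKM, and Benjamini-Hochberg adjustment over all of them. It was also run on simulated data, whose outcome is not given here, so the 0 calls among members say nothing of its power. The files hold no counts. The depth of each library was estimated from the step between low FPKM values of genes with 1 transcript of 2000 to 8000 bases, and fragments per member from its longest coding transcript, so no counting interval is given.

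The members and lists were chosen with earlier results of these data known. Named genes were the members, the 8 genes most like Adipoq, Lpl and Pparg among 12935 protein-coding or untyped genes whose mean reached 1 FPKM (predicted, mitochondrial and antigen receptor genes left out), and the most abundant of each list, up to 4 or, for other white adipocyte genes, 10. Genes named beyond this rule (among them Myh4, Upk3b, Zic1, Ucp1, Retn relatives, Gpihbp1, Pecam1, Cebpa, Fabp1, Thrsp, Plin4, Acvr1c, Lgals12, Adrb3, Trarg1 and Pnpla3) were chosen after their values were seen or as defining markers. The pairs were recomputed with pseudocounts of 0.1 and 1, with the floor removed or raised to 5 FPKM, and after scaling by the median of ratios of 7809 genes. The fit was repeated with no trend, with 1 diet effect for both days, and leaving out each DSS library. Ratios to Adipoq were repeated on FPKM + 0.5.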

Additional observations from a re-analysis of the deposited data

How the results depend on the processing

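Of the 24 counts of members at least 2-fold higher or lower, each under 5 alternatives, 114 of 120 kept their size within 1.5 times. Median-of-ratios scaling gave 5 members lower in RR against C (3 as deposited), 0 higher in RR against R (1 as deposited) and 2 lower in 2KR against 2K (1 as deposited). A pseudocount of 1 gave 0 higher in RR against R and 0 lower in 2KR against RR (1 as deposited), and a floor of 5 FPKM gave 0 lower in 2KR against RR too. By member and comparison, where a call needs 2-fold and the floor, 590 of 600 calls were kept, 5 were lost, 5 were gained and 0 changed sign. Lep, under the floor in the day 28 comparisons, depended on the pseudocount there: at 0.1 it was -2.18 in 3K against R (-0.99 at 0.5) and -1.56 in 2K against R (-0.79). The fit called 0 members under every alternative run, those without 1 DSS library or without the trend included, and 0 with diet effects common to both days. With that scaling the all-gene median was -0.15 in 1K against R (0.03 as deposited), 0.14 in 3KR against RR (0.03), -0.12 in RR against C (-0.02) and -0.14 in RR against R (-0.05), and 31.8% of the genes counted in 1K against R were higher (45.4% as deposited). No paired analysis was possible because each condition has 1 library and the labels give no replicate numbers. With 1 library per condition and no counts in the files, neither biological spread nor counting error is known, which weighs most on Lep and on the low values of 1K and 3KR.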
